A study of Homo sapiens with 4 samples.

Results

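The genes examined here were 10 genes of the Hippo pathway and its transcriptional output in A549 cells treated with embelin: the YAP/TEAD target genes CYR61, CTGF, ANKRD1, AMOTL2 and AXL, the transcription factors TEAD1 and TEAD4, the coactivators YAP1 and WWTR1, and the kinase gene LATS2. Their probes were found by gene name, current alias or RefSeq transcript among the non-control probes of the array, which gave 18 of 50238 probes and 10 of 30970 gene names. The A549 line was derived from a human adenocarcinoma of the lung. Embelin, a natural benzoquinone, comes from the fruits of Embelia ribes. Cells in medium with low serum were left untreated (control, 2 samples) or received 15 µM embelin (2 samples), RNA was taken at 4 h, and each sample was labelled with Cy3 and hybridised to 1 array. The controls were described as untreated, with no vehicle named, and the labels do not say that the 2 samples of a group came from separate cultures, so that p-values here measure the spread between these samples. All samples were from 1 cell line, and a change in RNA per cell cannot be told apart from a change in the number of cells of a kind.

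In the Hippo pathway the kinases MST1 and MST2 (genes STK4 and STK3) with SAV1 activate LATS1 and LATS2, which phosphorylate the coactivators YAP and TAZ (genes YAP1 and WWTR1) and keep them out of the nucleus. Unphosphorylated YAP and TAZ bind the TEAD factors and raise transcription of genes such as CTGF, CYR61 and ANKRD1. Several YAP/TEAD targets, among them AMOTL2 and LATS2, act back on the pathway as inhibitors. YAP and TAZ are controlled largely by phosphorylation and location, which an expression array does not measure.

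Embelin-treated cells held less CYR61 and AMOTL2 signal than controls on every array, by 1.73-fold and 1.63-fold, while the signal of CTGF differed little between the groups. Such a separation was common, since 30.7% of genes with a value on all arrays lay wholly below controls. Of all genes tested, 18.0% had a larger absolute change than CYR61 and 21.3% a larger one than AMOTL2. LATS2 had a lower mean with embelin on both of its probes. The mean differences of the coactivators YAP1 and WWTR1 were 0.02 and 0.21 on the log2 scale, and those of TEAD1 and TEAD4 were -0.22 and -0.23. None of the 9 genes that could be tested passed an adjusted p of 0.05 by limma. All log2 values that follow are normalised signals, set to a common 75th percentile in each array, and all log2 fold changes are embelin minus control.

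CYR61, now also named CCN1, encodes a secreted matricellular protein of the CCN family. Its brightest probe read 12.90 and 12.80 in controls against 12.01 and 12.10 with embelin. Both embelin values lay below both control values, and the groups were set apart by far more than the spread within them. Group means were 12.85 ± 0.07 for control and 12.06 ± 0.06 for embelin (SD, n = 2). This gave a log2 fold change of -0.79 (SE 0.16, 95% interval -1.24 to -0.35), with an unadjusted p of 0.00742 and an adjusted p of 0.108 by limma with Benjamini-Hochberg adjustment. The same gene was read by 3 probes, and on each the embelin arrays were below the control arrays. The second probe read 12.04 and 11.94 in controls against 11.23 and 11.15 with embelin, a log2 fold change of -0.81. The third read 10.94 and 11.40 against 10.06 and 10.56, a log2 fold change of -0.86. Probes of 1 gene share the samples and are not replicates. Between pairs of arrays the log2 difference in CYR61 ranged from -0.88 (embelin 1 minus control 1) to -0.70 (embelin 2 minus control 2). By limma's eBayes with trend and robust, an alternative way of sharing the spread between genes, the adjusted p of CYR61 was 0.0288, and over all alternatives tried it ranged from 0.0288 to 0.562.

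CTGF, now also named CCN2, encodes another secreted CCN protein and is widely used as a readout of YAP/TEAD activity. Its probe read 9.01 and 9.16 in controls and 8.91 and 9.37 with embelin. The embelin values lay on either side of the control values, so that the groups overlapped. The log2 fold change was 0.05 (SE 0.23, 95% interval -0.58 to 0.68), with an adjusted p of 0.933 by limma. The sign of the CTGF difference turned with 1 array left out, being -0.02 without control replicate 1 and -0.18 without embelin replicate 2.

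AMOTL2 encodes an angiomotin family protein of cell junctions that binds YAP. It read 14.22 and 14.21 in controls against 13.44 and 13.57 with embelin. The 2 control values were nearly the same, and both embelin values lay below them. The log2 fold change was -0.70 (SE 0.16, 95% interval -1.15 to -0.26), with an unadjusted p of 0.0113 and an adjusted p of 0.127 by limma. With trend and robust the adjusted p was 0.032, and over all alternatives it ranged from 0.032 to 0.602. Its change stayed between -0.77 and -0.64 with each array left out in turn, with an unadjusted p between 0.0374 and 0.0617 by limma.

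AXL, which encodes a receptor tyrosine kinase, read 12.97 and 13.33 in controls and 13.26 and 13.77 with embelin. Embelin replicate 1 fell between the control arrays, so the groups overlapped. The log2 fold change was 0.36 (SE 0.27, 95% interval -0.36 to 1.09), with an adjusted p of 0.521 by limma.

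ANKRD1 encodes an ankyrin repeat protein of muscle and stressed cells that acts as a transcriptional cofactor. Its probe read 5.42 and 4.01 in controls and 5.44 and 5.67 with embelin. It was well above background on 1 control array (replicate 1) and on 1 embelin array (replicate 2), the arrays on which dim probes could be read. It did not pass the filter, which asked for both arrays of a group, and no fold change is given for it. On the arrays where it was well above background the values were 5.42 and 5.67, a log2 difference of 0.25 with no replicate.

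**Figure D1:**
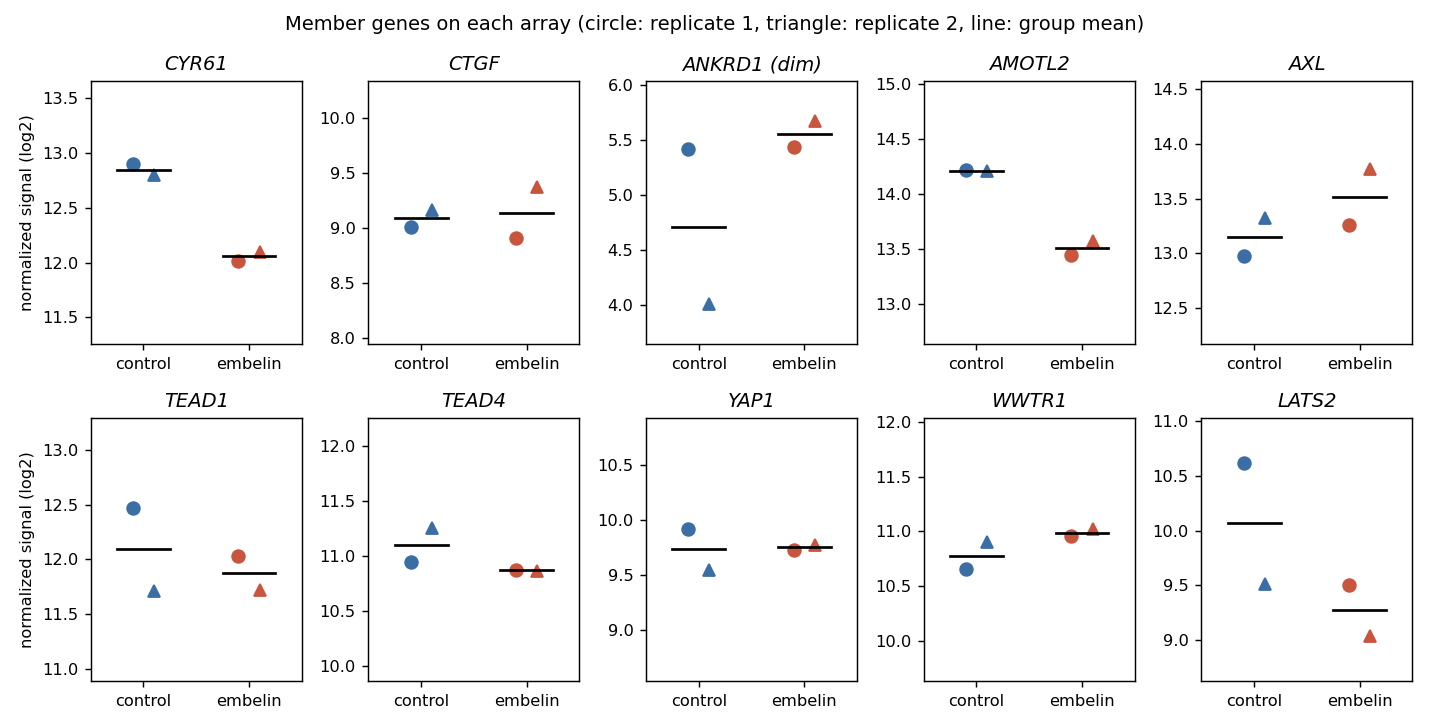
Normalised signal (log2) of each of the 10 genes on each array, for the brightest kept probe of the gene, with circles for replicate 1, triangles for replicate 2 and a line for the group mean. Every panel spans the same range of log2 units, and the label dim marks ANKRD1, which was not well above background on both arrays of either group. The embelin points of CYR61 (12.01 and 12.10) and AMOTL2 (13.44 and 13.57) sit clear of the control points, while those of CTGF and AXL overlap them.

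The promoters of these genes are shown because the array values of CTGF, ANKRD1, AMOTL2 and LATS2 can be set beside the letters that TEAD factors are known to recognise. Windows from 250 bases before to 50 after the transcription start were given by RefSeq (GRCh38.p14) for 7 of the 10 genes, 10 windows in all. CYR61, TEAD1 and TEAD4 have no window in the table used. The letters GGAATG, the core of the TEAD motif, were searched on both strands, and so was the AP-1 motif TGANTCA (N is any base). In the sequences below, printed 5′ to 3′ on the strand of the gene from 250 bases before the start to 30 after it, capitals mark the GGAATG core or its reverse complement.
CTGF (chr6:131951343-131951622, minus strand): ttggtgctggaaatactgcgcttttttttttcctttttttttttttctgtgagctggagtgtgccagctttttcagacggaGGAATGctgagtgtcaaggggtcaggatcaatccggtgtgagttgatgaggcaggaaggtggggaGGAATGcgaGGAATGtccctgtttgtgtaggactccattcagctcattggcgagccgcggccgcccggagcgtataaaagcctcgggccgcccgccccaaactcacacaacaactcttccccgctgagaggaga
ANKRD1 (chr10:90921058-90921337, minus strand): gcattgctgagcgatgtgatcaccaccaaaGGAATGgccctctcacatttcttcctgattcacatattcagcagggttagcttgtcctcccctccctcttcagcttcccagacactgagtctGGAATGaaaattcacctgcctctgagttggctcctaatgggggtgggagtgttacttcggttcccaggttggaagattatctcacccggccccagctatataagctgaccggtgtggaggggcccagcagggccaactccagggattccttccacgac
AMOTL2, the second of its starts (chr3:134374418-134374697, minus strand): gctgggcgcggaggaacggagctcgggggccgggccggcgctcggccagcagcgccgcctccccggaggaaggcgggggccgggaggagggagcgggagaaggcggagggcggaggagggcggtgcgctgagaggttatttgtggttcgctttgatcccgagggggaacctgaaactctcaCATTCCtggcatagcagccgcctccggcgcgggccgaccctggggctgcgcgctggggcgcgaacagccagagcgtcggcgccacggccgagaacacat
LATS2 (chr13:21061557-21061836, minus strand): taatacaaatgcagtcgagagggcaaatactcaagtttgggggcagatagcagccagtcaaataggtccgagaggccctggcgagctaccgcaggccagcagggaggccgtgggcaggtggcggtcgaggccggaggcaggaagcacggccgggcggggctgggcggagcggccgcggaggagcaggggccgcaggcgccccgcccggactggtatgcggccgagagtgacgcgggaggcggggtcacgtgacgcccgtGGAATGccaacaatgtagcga

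CTGF held the core 3 times, beginning at positions -169, -104 and -95 from the start, all on the strand of the gene. ANKRD1 held it at -220 and -128, with 1 AP-1 match at -195 between them, whose middle base, free in the search, was T. AMOTL2 held it once on the opposite strand, at -69 of its second start, and not in the window of its first start. LATS2 held it once, 10 bases into the transcript. Of the windows not printed, that of YAP1 held a core at -162 and the second of AXL held one at -212 on the opposite strand, while neither window of WWTR1 held any. In all, 6 of the 10 windows held the core, against 14.0% of 35116 human windows of 300 bases, and 3 or more copies, as in CTGF, were found in 0.128% of windows. AP-1 letters, with any middle base, were found in 7.71% of windows, and no TEAD match overlapped the AP-1 match in ANKRD1. These genes are known from studies of TEAD binding, so that the share is a description of them. The gene with the most copies, CTGF, had a log2 fold change of 0.05, and AMOTL2, with 1 copy at its second start, had -0.70. Neither change passed adjustment. CYR61 had no window, and a link between copies and change was not tested.

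**Figure D2:**
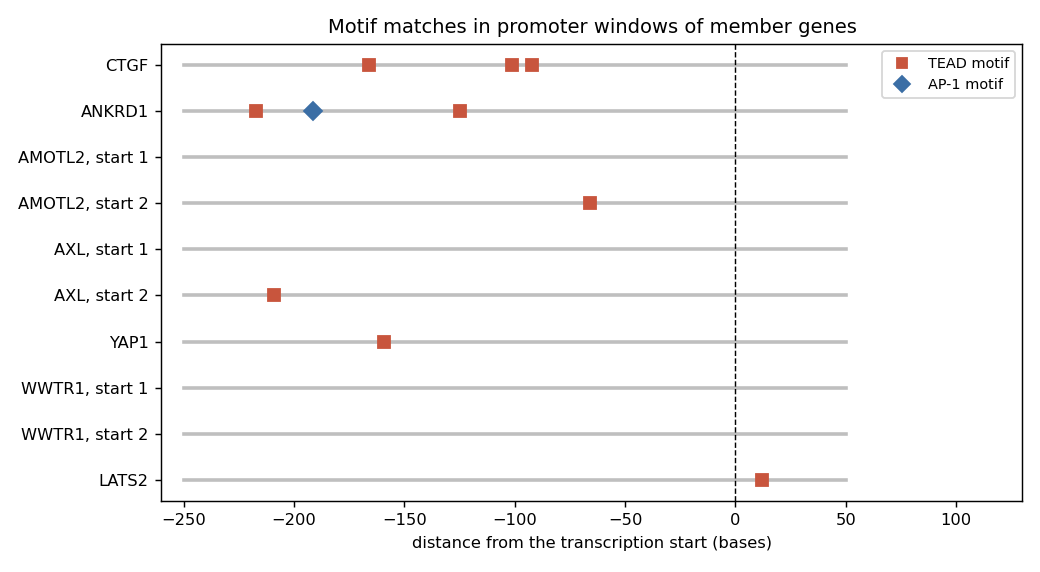
Matches to the TEAD core (squares) and to the AP-1 motif (diamond) in the 10 RefSeq promoter windows of 7 genes, by distance in bases from the transcription start (dashed line). Grey bars are the windows searched. CTGF holds 3 matches upstream of its start and LATS2 holds 1 just after it.

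TEAD1 and TEAD4 encode DNA-binding factors that carry YAP and TAZ to their target genes. The brighter probe of TEAD1 read 12.47 and 11.71 in controls and 12.03 and 11.72 with embelin, and the groups overlapped. Its log2 fold change was -0.22 (SE 0.32, 95% interval -1.10 to 0.67), with an adjusted p of 0.774 by limma. The second TEAD1 probe gave the opposite sign, reading 9.09 and 8.13 in controls against 8.91 and 9.35 with embelin, a log2 fold change of 0.52 (SE 0.40). No direction can therefore be given for TEAD1. TEAD4 read 10.94 and 11.26 in controls and 10.87 and 10.86 with embelin. Both embelin values were below both controls, but by less than the distance between the controls. The TEAD4 log2 fold change was -0.23 (SE 0.19, 95% interval -0.75 to 0.29), with an adjusted p of 0.568, and it came to -0.08 without control replicate 2.

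YAP1 read 9.92 and 9.55 in controls and 9.72 and 9.78 with embelin, both embelin values lying between the controls. Its log2 fold change was 0.02 (SE 0.20, 95% interval -0.54 to 0.57), with an adjusted p of 0.976 by limma, and its second probe gave 0.07. WWTR1, the gene of TAZ, read 10.65 and 10.90 in controls and 10.96 and 11.02 with embelin. The groups did not overlap, but embelin replicate 1 exceeded control replicate 2 by only 0.05. The log2 fold change of WWTR1 was 0.21 (SE 0.18, 95% interval -0.28 to 0.70), with an adjusted p of 0.590. Its 3 other probes gave 0.16, 0.11 and 0.39, so that all 4 were above 0 and none passed the test.

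LATS2 encodes a kinase that phosphorylates YAP and TAZ. The brighter of its probes read 10.62 and 9.52 in controls and 9.51 and 9.04 with embelin. Control replicate 1 stood well above the other arrays, and the closest values of the groups, control replicate 2 and embelin replicate 1, differed by 0.01. The log2 fold change was -0.79 (SE 0.44, 95% interval -2.01 to 0.42), with an adjusted p of 0.413 by limma. Leaving out control replicate 1 gave -0.24 and leaving out control replicate 2 gave -1.35, so that its size rests on which control array is used. The second LATS2 probe read 10.03 and 9.59 in controls and 8.97 and 8.88 with embelin, with both embelin values clear of the controls. That probe gave a log2 fold change of -0.89 (SE 0.23, 95% interval -1.51 to -0.27), with an unadjusted p of 0.0158 and an adjusted p of 0.170 over all kept probes by limma.

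**Figure D3:**
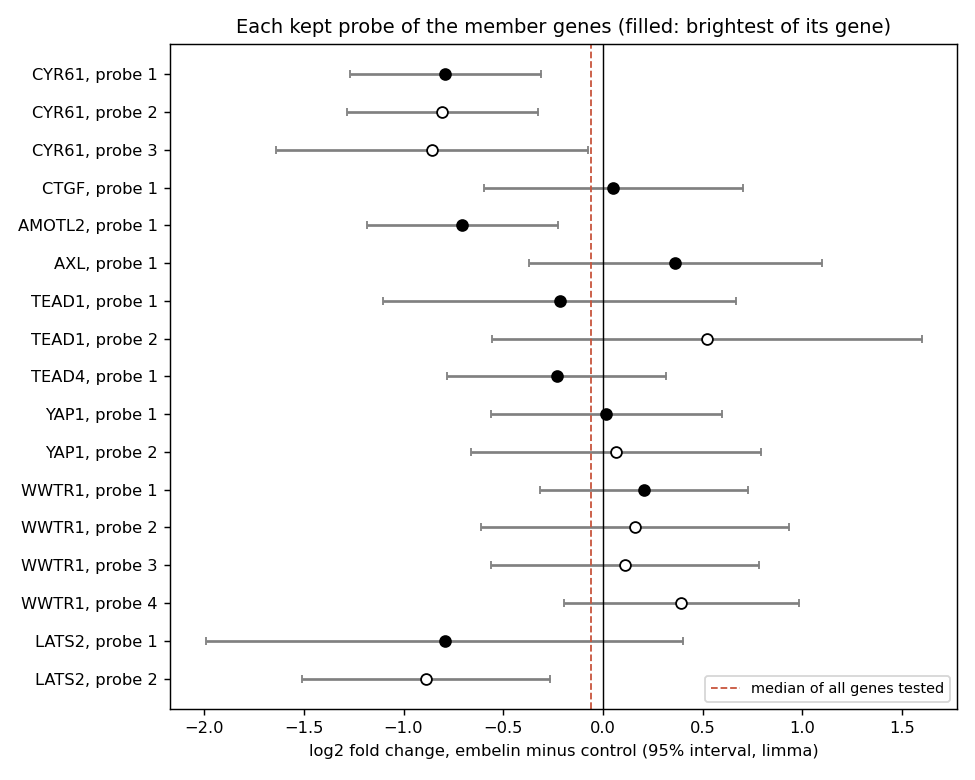
Log2 fold change (embelin minus control) of each of the 17 kept probes of the 9 genes tested, with its 95% interval from the limma fit over probes. Filled points are the brightest probe of a gene, and the dashed line is the median of all genes tested (-0.06). The intervals of all 3 CYR61 probes, of AMOTL2 and of the second LATS2 probe lie below 0, and the TEAD1 probes lie on opposite sides of 0.

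Related genes were also compared within arrays, in 6 pairs chosen after their values had been seen. The difference between the changes of CYR61 and CTGF was -0.84 (SE 0.23), and that between AMOTL2 and CTGF was -0.76 (SE 0.19). In both pairs the difference on the embelin arrays was below that on both control arrays, with an exact two-sided permutation p of 0.333, which is the smallest p that 2 against 2 arrays can give, and 0.666 after adjustment over the 6 pairs. Beside AMOTL1, another angiomotin family gene, with a log2 fold change of 0.49, the change of AMOTL2 was lower by a value of -1.20 (SE 0.12, exact permutation p = 0.333), given as a description since the pair was chosen for it. The changes of YAP1 and WWTR1 differed by -0.19 (SE 0.31) and those of TEAD1 and TEAD4 by 0.02 (SE 0.56), each with an exact permutation p of 1. The remaining pair, LATS2 and LATS1, gives no comparison, since LATS1 was well above background on only 1 of the 2 embelin arrays.

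Read against all 17649 genes tested, the 9 genes did not stand apart by their counts. After adjustment by limma 0 were called in either direction, where 1.25% of all genes were called higher and 0.561% lower. At an unadjusted p under 0.05, 0 were higher, against 8.36% of all genes, and 2 were lower (CYR61 and AMOTL2), against 11.1%. At the study's threshold of at least 2-fold with an unadjusted p under 0.05, 0 were called, against 4.27% higher and 3.99% lower over all genes. Embelin arrays lay wholly above controls for 1 gene (WWTR1), against 21.1% of the 17298 genes with a value on all arrays, and wholly below for 4 (CYR61, AMOTL2, TEAD4 and LATS2), against 30.7%. The median log2 fold change of the 9 was -0.22, and that of all genes -0.06. The median absolute change was 0.23 for the 9 and 0.296 for all genes. With trend and robust, 2 of the 9 were called lower after adjustment (CYR61 and AMOTL2).

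**Figure D4:**
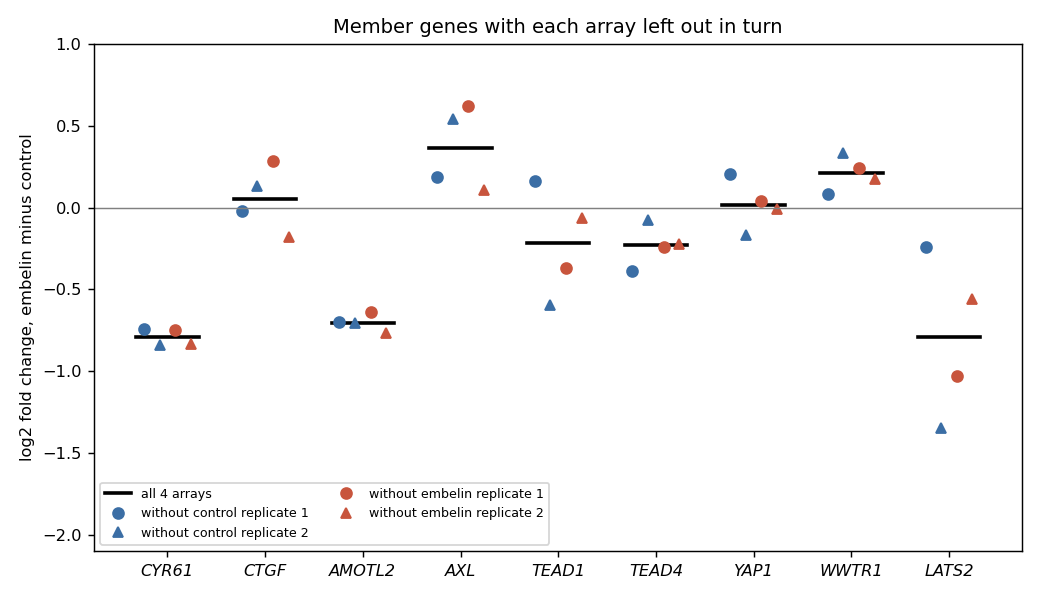
Log2 fold change (embelin minus control) of the 9 genes tested with all 4 arrays (black line) and with each array left out in turn (blue for a control array, red for an embelin array, circle for replicate 1, triangle for replicate 2). CYR61 stays between -0.84 and -0.74 and AMOTL2 between -0.77 and -0.64, LATS2 ranges from -1.35 to -0.24, and CTGF, TEAD1 and YAP1 cross 0.

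Of 23 other Hippo regulators, 20 passed the filter, and AMOT, LIMD1 and DCHS1 did not. By limma 0 of the 20 were called after adjustment, and at an unadjusted p under 0.05 there were 3 higher and 3 lower, against 8.36% and 11.1% of all genes. At the study's threshold 3 were higher and 2 lower, against 4.27% and 3.99%. Their median log2 fold change was 0.06. Those with the largest changes were both pathway activators and inhibitors. RASSF1, a scaffold that binds the MST kinases, read 11.19 and 11.52 in controls against 12.75 and 12.72 with embelin, a log2 fold change of 1.38 (adjusted p = 0.0612). SAV1, the adaptor of the MST kinases, read 9.97 and 10.43 against 11.28 and 11.55, a log2 fold change of 1.22 (adjusted p = 0.101). Both genes had embelin values wholly above the controls, and their second probes gave 1.58 (RASSF1) and 1.36 (SAV1). AJUBA, a LIM protein that restrains the LATS kinases, read 12.04 and 11.80 in controls against 10.58 and 10.83, a log2 fold change of -1.22 (adjusted p = 0.0764). FAT4, a large cadherin, read 6.62 and 6.87 against 4.89 and 5.51, but was well above background on only 1 of the 2 embelin arrays and passed the filter through the controls, so no fold change is given for it, although the counts of lower genes include it. RASSF1 and AJUBA passed an adjusted p of 0.05 by limma under normexp, under the filter that asked for all 4 arrays and with trend and robust. Over all alternatives their adjusted p ranged from 0.00927 to 0.429 and from 0.0169 to 0.472.

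Of the other TEAD genes and the VGLL genes, whose proteins bind TEAD factors in place of YAP, 4 of 5 were tested, and VGLL1 did not pass the filter. By limma 0 were called after adjustment. At an unadjusted p under 0.05, 1 was higher and 1 lower, against 8.36% and 11.1% of all genes. VGLL4, known as a repressor of TEAD output, read 9.96 and 9.99 in controls and 10.93 and 11.29 with embelin. Its log2 fold change was 1.14 (SE 0.20, adjusted p = 0.0847, from 0.0254 to 0.487 over the alternatives), and its second probe gave 1.07. VGLL3 had a log2 fold change of -0.72 on its brighter probe and 0.66 on the other, so that it has no settled direction. TEAD2 and TEAD3 had log2 fold changes of -0.44 and -0.38, with overlapping groups.

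A further 23 genes listed as YAP/TEAD targets were all tested, with 2 higher and 0 lower after adjustment by limma (1.25% and 0.561% of all genes) and 6 higher and 6 lower at an unadjusted p under 0.05 (8.36% and 11.1% of all genes). At the study's threshold 5 were higher and 2 lower (4.27% and 3.99% of all genes), and the median log2 fold change was -0.11. IGFBP3, a secreted binding protein of insulin-like growth factors, read 12.81 and 12.91 in controls and 15.01 and 15.65 with embelin, and rose by a log2 fold change of 2.47 (SE 0.27, adjusted p = 0.0462). AREG, an EGF receptor ligand, read 13.92 and 13.70 against 15.33 and 15.45, and rose by 1.58 (SE 0.18, adjusted p = 0.0478). Both calls were lost with any 1 array left out, where the adjusted p of IGFBP3 by limma lay between 0.0964 and 0.184 and that of AREG between 0.0916 and 0.228. F3, tissue factor, read 5.11 and 3.59 against 8.02 and 8.24. It exceeded background clearly in only 1 control sample and passed the filter through the embelin arrays, where it was high. For that reason no fold change is given for F3. The counts of higher genes at an unadjusted p and of genes wholly above controls include it. Embelin arrays lay wholly above controls for 7 of the 23 and wholly below for 8, against 21.1% and 30.7% of all genes. Some of these were chosen after their values were seen. Of those above, GADD45A had a log2 fold change of 1.51 (adjusted p = 0.0976 by limma). Of those below, EDN1 (endothelin) had a log2 fold change of -1.20 (adjusted p = 0.0651 by limma), FJX1 -1.07, and ARHGEF17 and DLC1 -0.86 each.

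Among the other CCN genes, NOV (CCN3) and WISP2 (CCN5) had embelin arrays wholly above the controls, as did 21.1% of all genes. Their log2 fold changes were 0.89 (adjusted p = 0.170) and 0.74 (adjusted p = 0.133) by limma, and WISP1 and WISP3 did not pass the filter. CYR61 and CTGF are also known to answer to serum response factor and its MRTF partners, so a list of 14 genes of that kind was read beside them. Of these, 12 were tested, 0 were called after adjustment by limma, and the median log2 fold change was 0.10. At an unadjusted p under 0.05 by limma, 1 was higher and 0 lower, against 8.36% and 11.1% of all genes. CNN1, calponin, had a log2 fold change of 1.42 (adjusted p = 0.0534), FHL2 0.58, SRF itself -0.52 and VCL -0.61. ACTG2 and MYL9 did not pass the filter.

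**Figure D5:**
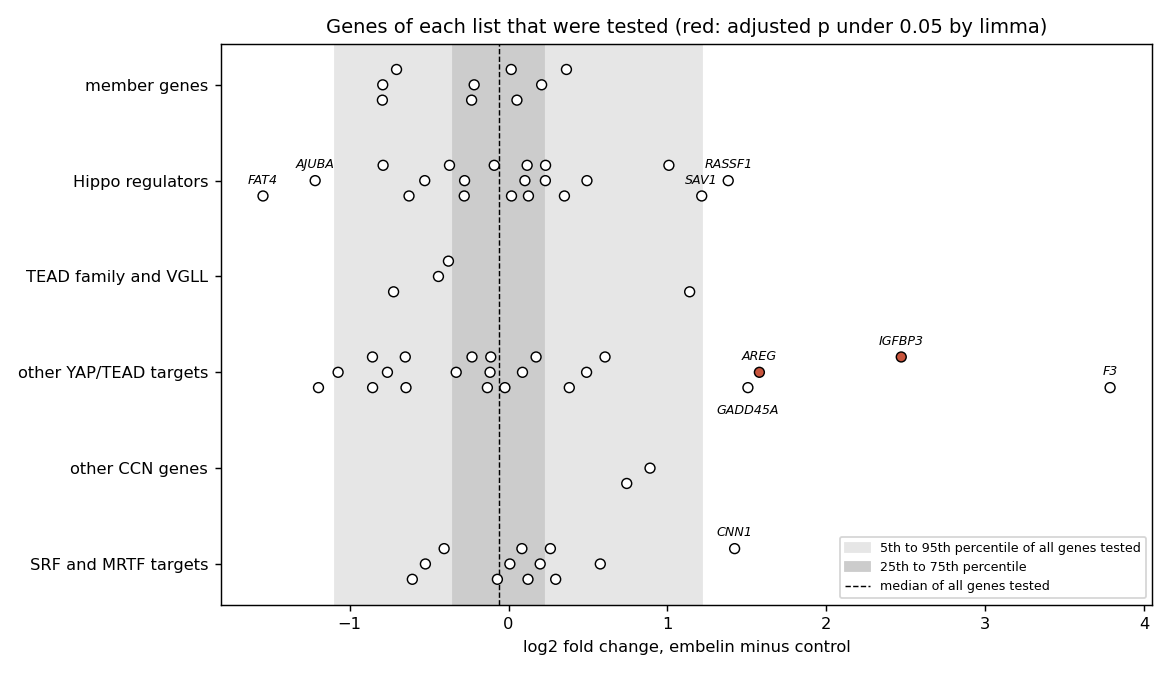
Log2 fold change (embelin minus control) of the tested genes in 6 lists, except 1 gene not reported here, with points shifted vertically within a list for legibility. Grey bands are the 5th to 95th and the 25th to 75th percentile of all genes tested, the dashed line is their median, red points passed an adjusted p of 0.05, and genes beyond 1.2 in size are named. The 10 Hippo and YAP/TEAD genes, of which 9 were tested, lie inside the wider band, and the 2 red points are AREG and IGFBP3. FAT4, LATS1 and F3 each had an array not well above background in their lower group, so that their places are approximate.

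The arrays lay on 1 slide from 1 scan, controls at positions 1 and 4 and embelin at 2 and 3. Control replicate 1 and embelin replicate 2 had lower background, with 66.7% and 66.4% of probes well above it, against 50.3% for control replicate 2 and 51.2% for embelin replicate 1. Within these like pairs, CYR61 differed by -0.80 and -0.78 (embelin minus control, low and high background) and AMOTL2 by -0.64 and -0.77. The brighter LATS2 probe differed by -1.58 in the low-background pair and -0.01 in the high-background pair. The second LATS2 probe read 10.03 in control against 8.88 with embelin in the low-background pair. In the high-background pair it read 9.59 against 8.97. All 5 epithelial markers (KRT8, KRT18, KRT19, EPCAM and CDH1) were well above background on every array, with log2 fold changes between -0.56 and 0.05 and 0 of 5 at an unadjusted p under 0.05 by limma. Of 5 fibroblast markers 1 was tested, COL1A1 at 1.30 (adjusted p = 0.0547). COL1A2 and COL3A1 were well above background on embelin replicate 1 only, at 8.30 and 8.86, LUM was so on control replicate 2 only, at 7.44, and DCN on none. Of 4 blood and endothelial markers CD3E read 5.39 and 4.85 in controls against 7.01 and 5.74 with embelin. It was well above background on only 1 control array and passed the filter through the embelin arrays, so no fold change is given for it. PTPRC was well above background on embelin replicate 1 only, PECAM1 on 1 array of each group and CDH5 on none. The part of these markers in the values of the Hippo genes was not tested. On embelin replicate 1, CYR61 read 12.01 and COL1A1 7.56. On embelin replicate 2, where COL1A2 and COL3A1 were not well above background, CYR61 read 12.10 and COL1A1 7.69. In controls COL1A1 read 6.38 and 6.27.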

How the data were processed

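RNA from 4 samples of A549 cells (2 control, 2 embelin) was measured on a custom single-colour human array from Agilent. The authors deposited scanner intensities from Feature Extraction 10.7.3.1 (per the file headers, which name the build hg18), background-subtracted and detrended, with a substitute value for dim spots and with the arrays not yet normalized to each other. A second deposited table gave these intensities as means per probe. Per the methods, the study used a 75th percentile shift, a limit of 2-fold, and Student's t-test.

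Starting from these deposited intensities, each array was scaled to a common 75th percentile, given a floor of 1 and log2 transformed. Outlier spots were left out, the spots of a probe were averaged, and a probe was kept (26146 of 50238) if the scanner software called it well above background throughout 1 group or both. The brightest kept probe stood for a gene. Groups were compared in R 4.3.3 with limma 3.58.1 (lmFit, eBayes), with Benjamini-Hochberg adjustment over 17649 genes. The fit was tested on simulated data. No array spot was saturated. The number of arrays limits the precision: the median pooled SD was 0.21 in log2.

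The genes, the lists and the alternatives were chosen with earlier results of these data known. Genes named were all 10 with all their probes. From each other list, the rule named up to 4 that were called or otherwise had the largest changes. LATS1 and AMOTL1 were added as partners in pairs after values were seen. GADD45A, EDN1, FJX1, ARHGEF17 and DLC1 were also added after values were seen. The cell type markers were a fixed list. For 1 gene covered by the rule no values are reported here, although counts include it. The alternatives were normexp (offset 50), quantile normalization, the deposited table, no filter, a filter on all 4 arrays, the methods' t-test, trend and robust, blocks for replicate number and array background, the mean over probes, each probe alone, slide position, outlier spots kept, a floor of 16, and leaving out each array, where the spread of a lone array is taken from the other group. Promoter windows came from RefSeq (GRCh38.p14) and carry no array measurement, and no coordinates were taken from the array.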

Additional observations from a re-analysis of the deposited data

How the results depend on the processing

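CYR61 and AMOTL2 kept their direction under every alternative, between -0.86 and -0.74 and between -0.77 and -0.64 in log2, and LATS2, AXL, TEAD4 and WWTR1 kept theirs. With each array left out CTGF ranged from -0.181 to 0.286, TEAD1 from -0.597 to 0.164, YAP1 from -0.17 to 0.203 and TEAD2 from -0.902 to 0.02. CTGF turned to -0.0233 without control replicate 1 and -0.181 without embelin replicate 2. TEAD1 turned to 0.153 as the mean over its probes, 0.522 on its second probe and 0.164 without control replicate 1. YAP1 turned to -0.17 without control replicate 2 and -0.00888 without embelin replicate 2. Among the other named genes TEAD2 turned to 0.02 without embelin replicate 1. The cause was not tested. Of the 10 genes, 2 were called lower after adjustment with trend and robust (0 otherwise). With each array left out, the count at an unadjusted p under 0.05 was 1 to 2 lower, and that at the 2-fold threshold 0 to 1, the 1 being LATS2 without control replicate 2.

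Calls over all genes depended strongly on the setting. Against 221 higher and 99 lower after adjustment, there were 422 and 277 with normexp, 419 and 345 with the filter on all 4 arrays, 566 and 495 with trend and robust, 126 and 33 with the deposited table, and 137 and 40 with outlier spots kept. The lower calls were 63 with quantile normalization and 56 with the mean over probes. There were 0 in either direction with no filter, the methods' t-test, the array background block, slide position as a covariate and each array left out, although 973 to 1431 genes were higher and 995 to 1644 lower at an unadjusted p under 0.05 with an array left out. At the 2-fold threshold, 368 were lower with normexp, and leaving out an array gave 672 to 1147 higher and 583 to 1120 lower. Hippo regulators called after adjustment were 1 higher and 1 lower with normexp and with the filter on all 4 arrays, and 2 and 1 with trend and robust, and at the 2-fold threshold 1 was lower with normexp and with that filter. Other YAP/TEAD targets called after adjustment were 4 higher and 1 lower with normexp, 5 and 3 with trend and robust, 1 lower with the filter on all 4 arrays, and 0 higher with quantile normalization, the deposited table, no filter, the methods' t-test, the background block, the mean over probes, slide position, outlier spots kept and each array left out. The higher counts with normexp and with trend and robust include F3, which passed the filter through the embelin arrays. At the 2-fold threshold 1 of these targets was lower by the methods' t-test.

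Replicate numbers were shared by the groups, but nothing in the labels pairs the samples, and same-numbered arrays deviated together with a correlation of 0.175 over 2 pairs. With the replicate block, 0 genes were called in either direction over all genes and 0 other targets, while 1673 were higher and 2070 lower at an unadjusted p under 0.05, and the adjusted p by limma was 0.153 for CYR61 and 0.168 for AMOTL2. LATS2 then had an unadjusted p of 0.0398 and an adjusted p of 0.213, which brought the lower genes at an unadjusted p under 0.05 from 2 to 3.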
